A study of Mus musculus with 6 samples.

Results

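The 9 genes Mbp, Mag, Mog, Mobp, Cnp, Aspa, Trf, Tspan2 and Cldn11 were examined as markers of myelinating oligodendrocytes. They were found among 19937 named genes of a whole-transcript array by gene symbol. Each of the 9 had a single probe set (the group of probes that reads 1 gene), so no choice among probe sets was needed. RNA came from primary neurospheres, colonies of neural precursor cells that float in the culture medium, called big neurospheres in the sample titles. They were grown from hippocampal tissue of male C57BL/6J mice aged 8 to 12 weeks, in neurosphere medium to which EGF and bFGF were added. One group of 3 samples was grown with 10 µM norepinephrine and the other group of 3 with 15 mM potassium chloride (KCl), and both were collected on day 14. The growth factors EGF and bFGF, present in all samples, keep precursors dividing, and no untreated group was analysed here. Every difference below is norepinephrine minus KCl and does not say to which treatment a gene responded.

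Oligodendrocytes are the glial cells that wrap axons of the central nervous system in myelin, a stack of compacted membrane. Precursor cells that divide under growth factors leave the cell cycle, switch on lipid synthesis and then express the myelin proteins in sequence. Mbp holds the inner membrane faces together, Mobp lies in compact myelin beside it, and Cnp binds the cytoplasmic membrane and is switched on early. Mag sits next to the axon, Mog on the outermost surface, and claudin 11 (Cldn11) forms the tight junctions between the wraps. Tspan2 is a tetraspanin of the oligodendrocyte membrane, transferrin (Trf) carries iron, and aspartoacylase (Aspa) splits N-acetylaspartate to free acetate for lipids.

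The samples are called biological replicates in the labels. The labels do not say whether each came from its own animal, so p-values measure only the spread among these 6 arrays, which may in part be technical. Values are log2 expression per probe set, with a precision that the small number of arrays limits. In bulk RNA such as this, fewer cells of a type and less RNA per cell cannot be told apart. The array of KCl replicate 1 stood apart. Its values had a standard deviation (SD) of 1.38 over the named probe sets, against 1.62 to 1.78 on the other arrays, and its correlation with any of them was at most 0.929. Differences are therefore given on 6 arrays and again without it. Markers of neural precursors were high in place among the named probe sets, with Sox2 at the 95.7th and Nes at the 87.3rd percentile of the mean over the 6 arrays.

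Readings of the myelin genes were mostly in the middle or the lower part of the array. By the mean over 6 arrays, Trf lay at the 87.9th percentile of the named probe sets and Cnp at the 82.4th, Tspan2 at the 55.6th, Cldn11 at the 47.0th and Mbp at the 44.6th. Mobp, Mog, Mag and Aspa lay at the 37.5th, 35.1st, 28.7th and 22.8th percentiles. A place in this order also depends on how well each probe set binds, so it is no order of abundance. Signal over background was not available for these values, and whether the dimmer of these genes were expressed at all was not tested.

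The comparison asked which of the genes differ between spheres grown with norepinephrine and with KCl. Trf and Tspan2 read higher with norepinephrine and Aspa read higher with KCl, each with no overlap between the groups. Cnp also read higher on every norepinephrine array, but the lowest of them, at 8.82, was close to KCl replicate 2, at 8.79. Mbp, Mag, Mog, Mobp and Cldn11 overlapped between the groups. By limma with Benjamini-Hochberg adjustment over 21640 probe sets, 0 of the 9 genes had an adjusted p under 0.05, and the share called among all probe sets was 0%. The lowest adjusted p among the 9 was 0.939. The 9 genes were chosen with earlier results of these data known, so the counts that follow are no test of the set. An unadjusted p under 0.05 was found for 3 of the 9, against 3.43% of all named probe sets. The groups did not overlap for 4 of the 9, against 9.13% of all: 3 higher with norepinephrine, against 4.36%, and 1 higher with KCl, against 4.77%. Without KCl replicate 1, limma with the same adjustment called 0 of the 9 (0.0185% of all), 3 had an unadjusted p under 0.05 (4.63% of all), and the groups did not overlap for 5 (16.2% of all). On 6 arrays 4 of the 9 read higher with norepinephrine, and 5 without KCl replicate 1, where the shares of all named probe sets were 38% and 52.2%. The median difference of the 9 was -0.05, or 0.13 without KCl replicate 1, and that of all named probe sets was -0.07 and 0.01.

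**Figure D1:**
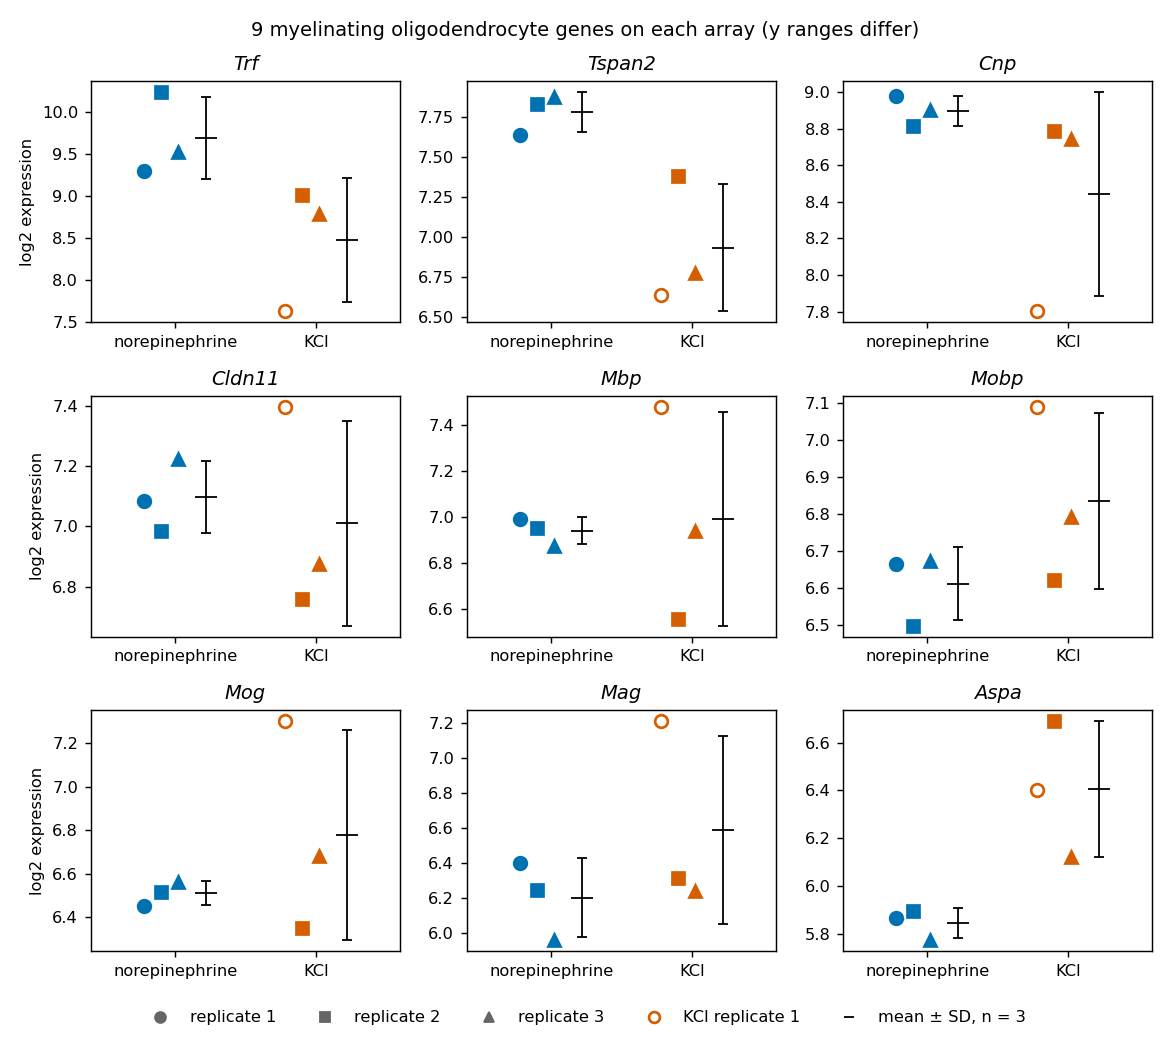
Log2 expression of each gene (y axis, a range of its own per panel) on the 3 norepinephrine and 3 KCl arrays (x axis), with the mean and SD of each group; marker shapes give the replicate and the open circle is KCl replicate 1. Trf, Tspan2 and Cnp are lowest on KCl replicate 1, and Mbp, Mag, Mog, Mobp and Cldn11 are highest on it.

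Trf, the iron carrier that oligodendrocytes make and secrete, read 9.30, 10.24 and 9.53 on norepinephrine replicates 1, 2 and 3. It read 7.63, 9.02 and 8.79 on KCl replicates 1, 2 and 3. All norepinephrine arrays stood above all KCl arrays, with replicate 2 the highest of its group in norepinephrine and replicate 1 the lowest in KCl. The group means were 9.69 ± 0.49 and 8.48 ± 0.74 (SD, n = 3 each). The difference was 1.21 ± 0.39 (SE), a 2.32-fold difference, with a 95% interval from 0.33 to 2.10 (limma, adjusted p = 0.939). Without KCl replicate 1 it was 0.79 ± 0.27, or 1.73-fold, with an interval from 0.19 to 1.39 (limma, adjusted p = 0.870). Without norepinephrine replicate 2 it was 0.94.

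Tspan2, a membrane organiser that is expressed as oligodendrocytes mature, read 7.64, 7.83 and 7.88 with norepinephrine. With KCl it read 6.64, 7.39 and 6.78. KCl replicate 2 lay nearer to the norepinephrine arrays than to the other KCl arrays, and the groups did not overlap. Group means were 7.78 ± 0.13 and 6.94 ± 0.40 (SD, n = 3 each). The difference was 0.85 ± 0.23 (SE), with a 95% interval from 0.31 to 1.38 (limma, adjusted p = 0.939). It was 0.70 ± 0.21 without KCl replicate 1, and 0.77 to 1.07 when any other single array was left out.

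Cnp, the early myelin phosphodiesterase, read 8.98, 8.82 and 8.90 with norepinephrine and 7.80, 8.79 and 8.74 with KCl. KCl replicates 2 and 3 lay just under the norepinephrine arrays, and KCl replicate 1 lay far below all of them. The difference of 0.45 ± 0.28 (SE, interval -0.18 to 1.09) was 0.13 ± 0.16 without KCl replicate 1 (interval -0.23 to 0.49). After a further quantile normalization, which gives all arrays the same distribution, the groups overlapped for Cnp.

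Aspa, the enzyme that supplies acetate from N-acetylaspartate, was the 1 gene of the 9 that was higher with KCl on every array. It read 5.87, 5.89 and 5.77 with norepinephrine and 6.40, 6.69 and 6.12 with KCl. KCl replicate 2 was the highest and KCl replicate 3 the closest to the norepinephrine arrays. Group means were 5.84 ± 0.06 and 6.40 ± 0.28 (SD, n = 3 each). The difference was -0.56 ± 0.20 (SE), with a 95% interval from -1.02 to -0.10 (limma, adjusted p = 0.939). It was -0.56 ± 0.20 without KCl replicate 1 too, and -0.42 without KCl replicate 2. After a further quantile normalization it was -0.43 ± 0.23, and its unadjusted p was no longer under 0.05. The groups still did not overlap, but KCl replicate 3, at 6.07, was then close to norepinephrine replicate 2, at 6.03. By place among the named probe sets of each array, Aspa lay at percentiles 18.69, 21.92 and 17.08 with norepinephrine. With KCl it lay at 21.88, 41.90 and 22.12. In this order KCl replicate 1 lay just under norepinephrine replicate 2, so the groups overlapped, and only KCl replicate 2 stood apart.

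Myelin basic protein (Mbp) read 6.99, 6.95 and 6.88 with norepinephrine and 7.48, 6.56 and 6.94 with KCl. The norepinephrine arrays lay close together, and both the highest and the lowest reading were KCl arrays. The difference was -0.05 ± 0.25, and its direction turned to 0.19 ± 0.18 without KCl replicate 1. Mobp read 6.67, 6.50 and 6.67 with norepinephrine and 7.09, 6.62 and 6.79 with KCl, a difference of -0.22 ± 0.20, or -0.10 ± 0.17 without KCl replicate 1. KCl replicate 2 lay below norepinephrine replicates 1 and 3 for Mobp, so the groups overlapped as deposited, but not after a further quantile normalization, where the difference was -0.14 ± 0.13. Neither compact myelin gene differed beyond the spread of the arrays, and their intervals reach from -0.62 for Mbp and -0.67 for Mobp on the KCl side to 0.52 and 0.22 on the norepinephrine side.

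Mag, the adhesion molecule that faces the axon, read 6.40, 6.25 and 5.96 with norepinephrine and 7.21, 6.32 and 6.24 with KCl. Mog, the surface glycoprotein, read 6.45, 6.52 and 6.56 with norepinephrine and 7.30, 6.35 and 6.68 with KCl. For both, the array of KCl replicate 1 alone stood above the other 5, which overlapped. Mag differed by -0.39 ± 0.28 (interval -1.04 to 0.26) and Mog by -0.27 ± 0.25 (interval -0.85 to 0.31). Both were nearer to 0 when KCl replicate 1 was left out, at -0.08 ± 0.18 and -0.0050 ± 0.17. Cldn11, the tight junction protein of the sheath, read 7.09, 6.98 and 7.22 with norepinephrine and 7.40, 6.76 and 6.88 with KCl. Its difference was 0.09 ± 0.22 (interval -0.41 to 0.59), or 0.28 ± 0.17 without KCl replicate 1, where all norepinephrine arrays stood above both remaining KCl arrays. Its direction turned to -0.039 without KCl replicate 2.

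**Figure D2:**
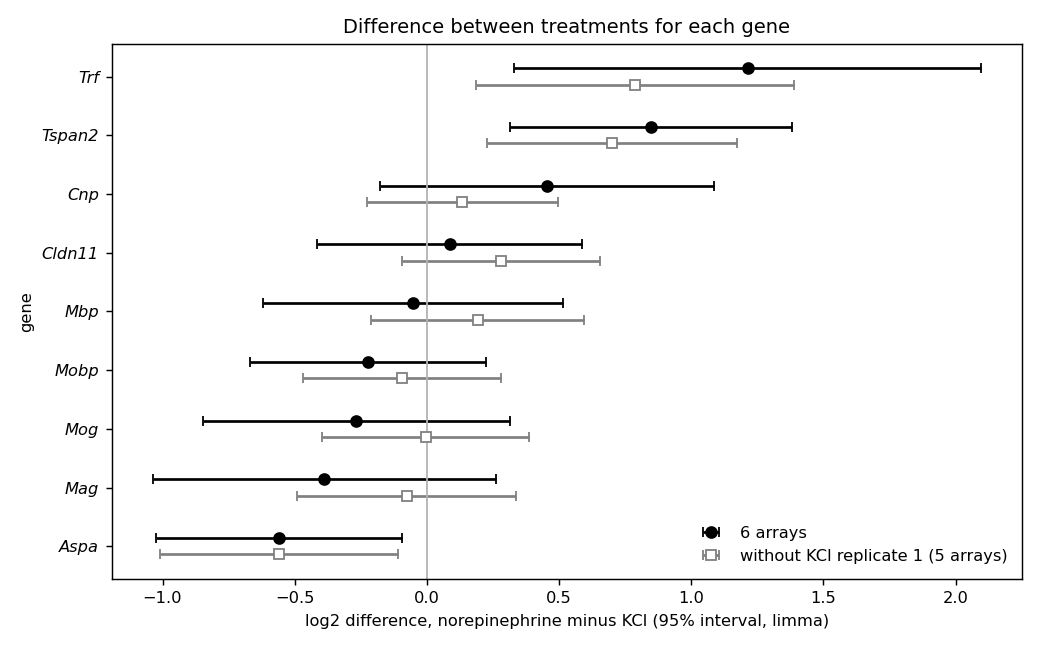
Log2 difference, norepinephrine minus KCl (x axis), with its 95% interval from limma for each gene (y axis), on 6 arrays (filled) and without KCl replicate 1 (open). The intervals of Trf, Tspan2 and Aspa lie to one side of 0 in both, and those of the other 6 genes cross 0.

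The readings of the 9 genes spread more with KCl than with norepinephrine. The SD over 3 arrays was larger with KCl for 9 of 9 genes, where the same held for 83.8% of all named probe sets. SDs ran from 0.06 to 0.49 with norepinephrine, the highest being that of Trf, and from 0.24 to 0.74 with KCl. KCl replicate 1 was the highest of all arrays for 5 of the 9 genes (Mbp, Mag, Mog, Mobp and Cldn11) and the lowest for 3 (Trf, Tspan2 and Cnp). It was at one end for 76.3% of all named probe sets. On this array dim probe sets read high and bright ones low. The median distance from the mean of the other 5 arrays was 0.55 in the dimmest of 5 equal classes by brightness and -0.62 in the brightest.

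Part of the myelin genes followed this trend. Aspa, Mobp, Mog and Mag fell in brightness class 2, counted from the dimmest, where the median distance was 0.52, and their own distances were 0.33, 0.44, 0.79 and 0.98. Cldn11 and Mbp, in class 3 with a median of 0.32, were at 0.41 and 0.62. Cnp and Trf, in the brightest class, were at -1.04 and -1.75. Tspan2 went the other way, at -0.86 in a class whose median was 0.32. Aspa was the 1 gene of the 9 whose reading on KCl replicate 1 lay between those of KCl replicates 2 and 3.

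**Figure D3:**
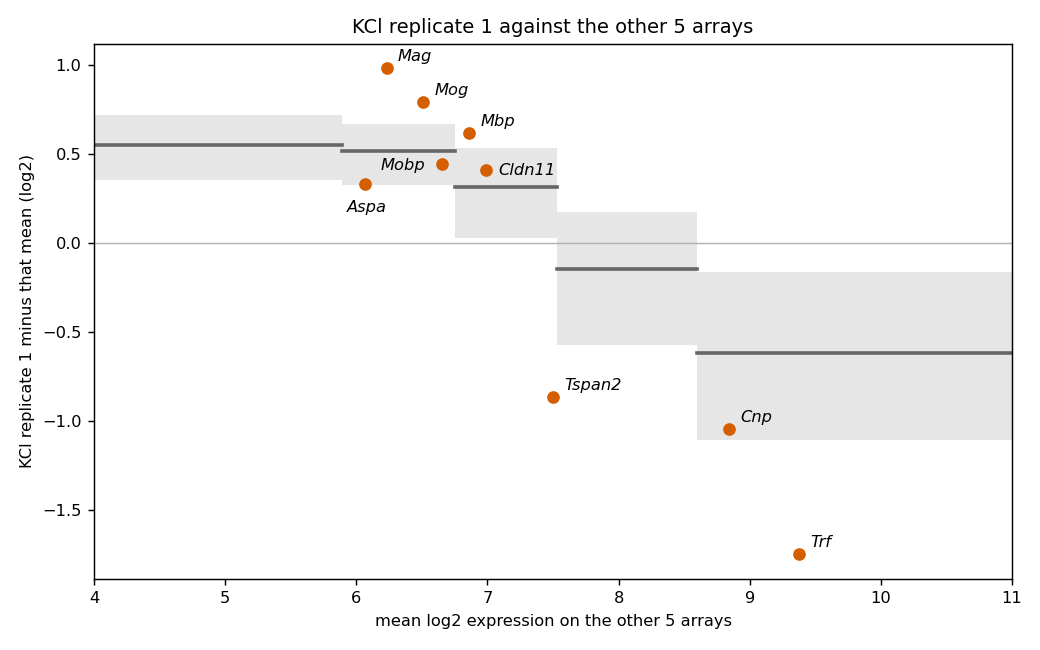
Distance of KCl replicate 1 from the mean of the other 5 arrays (y axis, log2) against that mean (x axis, log2 expression, shown from 4 to 11) for the 9 genes (points). Grey bars give the median and the middle 50% of named probe sets in each of 5 equal classes of brightness, from 0.55 in the dimmest to -0.62 in the brightest; Tspan2 lies far below the bar of its class.

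Promoter windows from RefSeq (GRCm38.p6) were read for the genes, since SOX10 and MYRF, factors that drive myelin genes, bind DNA near them. Of the 9 genes, 7 had a window in the table, 10 windows in all, and Mbp and Trf had none. Mag has 3 windows, 2 of which overlap, and Tspan2 has 2, of which the upstream one is shown. The 250 bases before the start are shown for the 4 genes on which the comparison or the motif search turned, 5′ to 3′ on the strand of the gene. Capitals mark the SOX core ACAAAG or its reverse complement CTTTGT.
Tspan2, chr3:102734520-102734769, plus strand: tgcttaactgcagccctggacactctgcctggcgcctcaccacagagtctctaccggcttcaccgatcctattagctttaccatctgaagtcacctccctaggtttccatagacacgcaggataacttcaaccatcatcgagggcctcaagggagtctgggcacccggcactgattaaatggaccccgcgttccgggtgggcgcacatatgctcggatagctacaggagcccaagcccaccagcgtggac
Cnp, chr11:100574689-100574938, plus strand: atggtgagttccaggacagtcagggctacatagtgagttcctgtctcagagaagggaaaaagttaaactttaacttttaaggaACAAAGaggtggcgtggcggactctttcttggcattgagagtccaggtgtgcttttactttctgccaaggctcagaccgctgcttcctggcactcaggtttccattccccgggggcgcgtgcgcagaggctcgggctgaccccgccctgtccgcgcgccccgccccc
Aspa, chr11:73324638-73324887, minus strand: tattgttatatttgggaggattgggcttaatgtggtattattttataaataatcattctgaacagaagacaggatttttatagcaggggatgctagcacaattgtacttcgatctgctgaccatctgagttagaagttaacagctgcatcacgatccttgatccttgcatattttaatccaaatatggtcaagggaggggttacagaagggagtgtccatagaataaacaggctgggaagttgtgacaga
Mobp, chr9:120149492-120149741, plus strand: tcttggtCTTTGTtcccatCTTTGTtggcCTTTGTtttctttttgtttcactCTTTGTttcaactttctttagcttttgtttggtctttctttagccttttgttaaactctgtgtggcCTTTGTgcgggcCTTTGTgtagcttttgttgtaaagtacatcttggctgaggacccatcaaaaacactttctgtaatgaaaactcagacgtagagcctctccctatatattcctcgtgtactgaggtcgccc

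The windows shown for Tspan2 and Aspa held no SOX core, the downstream window of Tspan2 held 1, and that of Cnp held 1. Mobp held 6, all in the CTTTGT orientation and in a stretch rich in T. It was the single window with 6 or more of 32851 in the table, a cutoff equal to its own count. Whether the 6 matches are separate SOX sites was not tested. At least 1 SOX core was present in 5 of the 10 windows of the myelin genes and in 16.5% of all windows. The overlapping windows of Mag share their single core and are counted apart in this number, so by gene it was 4 of 7. The letters CTGGNAC, taken from the MYRF site, were found on either strand in 4 of the 10 windows, which again include both overlapping windows of Mag (3 of 7 genes), and in 16.1% of all. The core TGACG of the cAMP response element was found on either strand in 0 of the 10 and in 17.8% of all. E-boxes (CANNTG), the sites of OLIG2 and related factors, were found in 6 of the 10 and in 66.2% of all, and can overlap with the other motifs. These matches describe the letters of the windows only.

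Other genes of mature oligodendrocytes were split in direction on 6 arrays, but not without KCl replicate 1. Of 36 measured genes, 18 read higher with norepinephrine and 18 higher with KCl, and 0 passed over all genes. Of all named probe sets, 38% read higher with norepinephrine. Without KCl replicate 1, 29 of the 36 were higher with norepinephrine, against 52.2% of all. The median of the 36 was 0.03, or 0.10 without that array. Plasmolipin (Pllp), a proteolipid of myelin, read 8.25, 8.21 and 8.47 with norepinephrine and 7.82, 7.57 and 7.48 with KCl. The groups did not overlap, and the difference of 0.68 ± 0.19 (SE) was 0.78 without KCl replicate 1. Mcam, an adhesion molecule that vessel cells also carry, stood at -0.65 ± 0.22, or -0.83 without that array.

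Among 16 genes of contact with the axon and of junctions, 5 read higher with norepinephrine and 11 higher with KCl. The median difference was -0.15, or -0.05 without KCl replicate 1 (7 of 16 higher with norepinephrine). Gjc3, a connexin of myelinating glia, read 7.33, 7.84 and 7.87 with norepinephrine and 8.33, 8.58 and 8.35 with KCl. As with Aspa, every KCl array stood above every norepinephrine array, and the difference was -0.74 ± 0.21, or -0.79 without KCl replicate 1. The axonal contact protein Cntn1 stood at 0.83 ± 0.35, and at 0.41 without that array. Of 12 partners of Mag and related inhibitors, 5 read higher with norepinephrine. Their median turned from -0.05 to 0.03 (7 of 12 higher) without KCl replicate 1. The oligodendrocyte myelin glycoprotein Omg stood at 0.56 ± 0.23 and Rtn4, which encodes Nogo, at -0.25 ± 0.19, or 0.37 and -0.15 without that array. In both lists 0 genes passed over all genes.

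The factors that drive the lineage did not pass over all genes on 6 arrays or without KCl replicate 1. Of 14 transcription factors, 5 read higher with norepinephrine and 9 higher with KCl, and the median was -0.01 (6 of 14 and -0.02 without KCl replicate 1). An unadjusted p under 0.05 was found for 0 of the 14 on 6 arrays, against 3.43% of all named probe sets. It was found for 2 of them, Sox10 and Tcf7l2, without that array, against 4.63% of all. Sox10, which activates myelin genes, stood at 0.20 ± 0.25, or 0.45 ± 0.18 without it. Tcf7l2, a partner of beta-catenin, stood at -0.29 ± 0.28, or -0.57 ± 0.21. Olig2, which specifies the lineage, stood at -0.18 ± 0.18 (-0.20 without that array), Myrf, the switch to myelin gene expression, at -0.17 ± 0.22 (-0.05), and St18 at -0.22 ± 0.20 (-0.09).

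Of 13 genes that hold differentiation back, 6 read higher with norepinephrine in either case, with a median of -0.04, or -0.06 without KCl replicate 1. Gpr17, a receptor of cells about to differentiate, read 7.65, 8.02 and 8.22 with norepinephrine and 7.63, 7.29 and 6.86 with KCl. The difference was 0.70 ± 0.25, or 0.89 without KCl replicate 1, the array closest to the norepinephrine group. The differentiation inhibitor Id2 stood at 0.69 ± 0.27, or 0.43 without KCl replicate 1. None of the 13 passed over all genes.

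Markers of precursors, the cells from which myelinating oligodendrocytes arise, were split in direction. Of 17 measured, 9 read higher with norepinephrine and 0 passed over all genes, with a median of 0.05 (11 of 17 and 0.08 without KCl replicate 1). After a further quantile normalization the median was -0.03. The PDGF receptor Pdgfra, which receives their growth signal, stood at 0.66 ± 0.24, or 0.57 without KCl replicate 1. The mean of these markers was 8.43 to 8.64 with norepinephrine and 8.43, 8.44 and 8.46 on the KCl arrays. For the 9 myelinating genes the mean was 7.26 to 7.33 with norepinephrine and 7.22, 7.17 and 7.11 with KCl. This mean is drawn up by Trf and Tspan2, with differences of 1.21 and 0.85. The mean difference of the 9 was 0.12 against a median of -0.05, and 5 of the 9 read higher with KCl on 6 arrays.

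**Figure D4:**
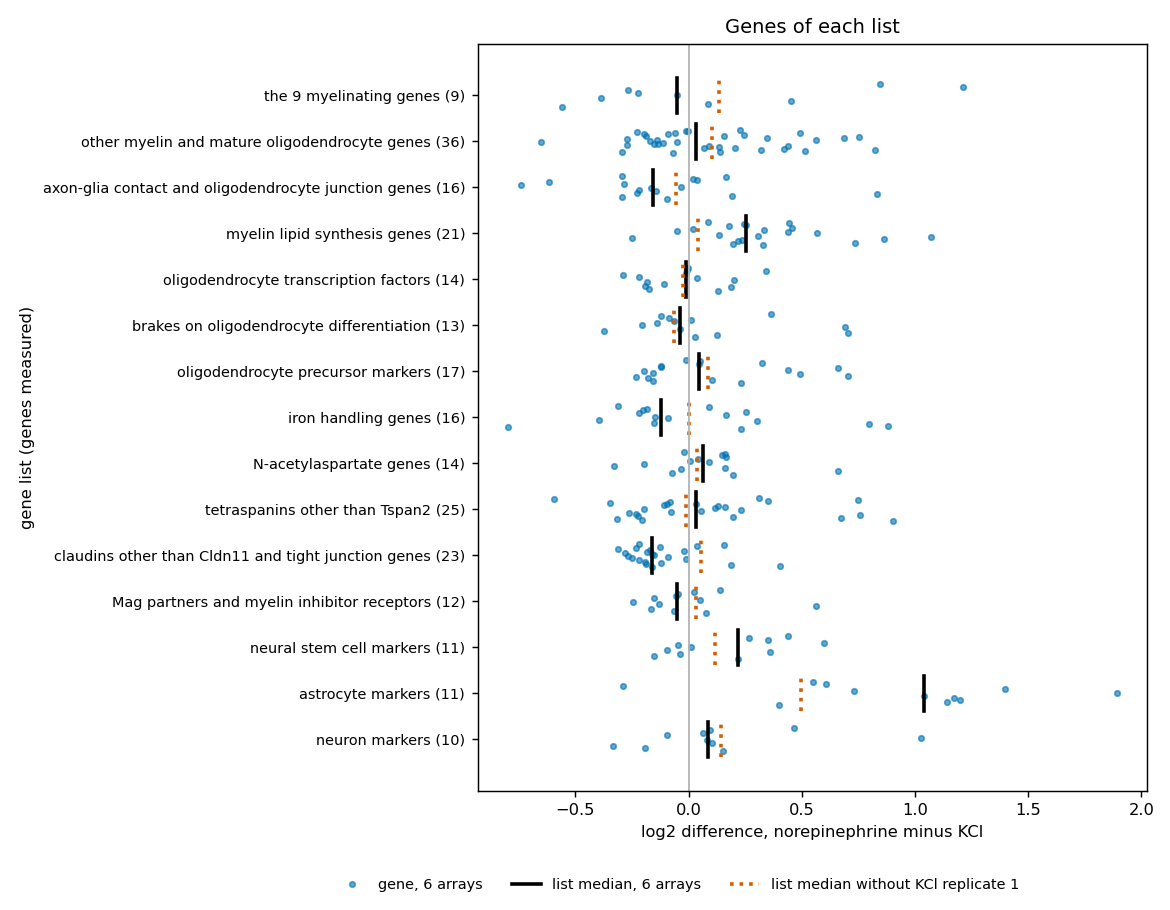
Log2 difference, norepinephrine minus KCl (x axis), of each measured gene (points) in each list (y axis, number measured in brackets), with the list median on 6 arrays (solid) and without KCl replicate 1 (dotted). The 9 myelinating genes have a median of -0.05, and most lists of the lineage have medians near 0, while the astrocyte markers have one of 1.04.

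Genes around the members with a metabolic role were read next. Of 16 genes of iron handling, 7 read higher with norepinephrine, with a median of -0.12. Without KCl replicate 1 it was 8 of 16 with a median of 0.00048, and after a further quantile normalization the median was -0.06. The ferritin subunits, which store iron, read higher with norepinephrine, as Trf did. Ftl1 read 8.16, 8.02 and 8.20 with norepinephrine and 7.12, 7.50 and 7.37 with KCl, a difference of 0.80 ± 0.19, or 0.69 without KCl replicate 1. Fth1 stood at 0.88 ± 0.30, and at 0.53 ± 0.18 without KCl replicate 1. Cp, another gene of this list, named after its values were seen, went the other way. It stood at -0.80 ± 0.39, and at -1.22 ± 0.27 without KCl replicate 1. The transferrin receptor Tfrc, which takes up iron-loaded transferrin, turned from 0.09 ± 0.38 to -0.30 ± 0.28 without that array.

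Of 14 genes that make, move or use N-acetylaspartate, 9 read higher with norepinephrine (median 0.06), or 8 without KCl replicate 1 (median 0.04). Nat8l, which makes it, stood at 0.09 ± 0.23 (0.27 without that array), the acetate-activating Acss2 at 0.66 ± 0.32 (0.32) and Folh1, which splits a peptide that contains it, at -0.33 ± 0.18 (-0.31). None of these 30 iron and N-acetylaspartate genes passed over all genes.

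Of 21 genes of myelin lipid synthesis, 19 read higher with norepinephrine, with a median of 0.25. Leaving out KCl replicate 1 gave 14 of 21 and a median of 0.04. The list mean was 8.20 on that array, 9.11 and 8.97 on the other KCl arrays and 9.05 to 9.12 with norepinephrine, and its median place on the array was the 89.2nd percentile. Ugt8a, which makes galactolipid, turned from 0.08 ± 0.32 to -0.13 ± 0.29 without that array. The fatty acid elongases Elovl7 and Elovl5 stood at 1.07 ± 0.52 and 0.86 ± 0.45, or 0.39 and 0.27. None passed over all genes.

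The families of Tspan2 and Cldn11 were read for comparison. Of 25 other tetraspanins, 13 read higher with norepinephrine (median 0.03), or 12 without KCl replicate 1 (median -0.01), and 0 passed over all genes. Cd151 stood at 0.90 ± 0.30 (0.65 without that array) and Tspan8 at -0.59 ± 0.24 (-0.69). Cd9, another tetraspanin of the oligodendrocyte lineage, stood at 0.76 ± 0.46, or 0.40 ± 0.42. Of 23 other claudins and tight junction genes, 4 read higher with norepinephrine (median -0.16), and 0 passed over all genes. When KCl replicate 1 was left out, 16 of 23 were higher and the median was 0.05. Cldn10 stood at 0.40 ± 0.24 in both cases, and Cldn20 at -0.27 ± 0.20, or -0.16 without that array.

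Several of the 9 genes are also expressed by other cells, and the markers of those cells were read beside them. Most astrocyte markers had the sign of Trf and Tspan2, with 10 of 11 higher with norepinephrine and a median of 1.04, or 0.50 without KCl replicate 1. Their mean was 9.49 to 9.61 with norepinephrine and 8.32, 8.81 and 8.78 on KCl replicates 1, 2 and 3. The filament protein Gfap and the water channel Aqp4 stood at 1.89 ± 0.30 and 1.17 ± 0.22. None of the 11 passed over all genes on 6 arrays, and 1, Gfap, passed when KCl replicate 1 was left out (2.17 ± 0.24, limma, adjusted p = 0.0450). Their part in the readings of Trf and Tspan2 was not tested.

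Of 11 neural stem cell markers 7 were higher with norepinephrine (median 0.22, or 0.12 without KCl replicate 1), with means of 9.44 to 9.56 and 9.13 to 9.41. Sox2 stood at 0.35 ± 0.26 and Nes at -0.10 ± 0.37, or 0.07 and -0.58 ± 0.17 without that array. Of 10 neuron markers 7 were higher with norepinephrine (median 0.09), or 8 without KCl replicate 1 (median 0.14), with means of 7.33 to 7.49 and 7.20 to 7.39. The neuronal tubulin Tubb3 stood at 0.47 ± 0.18, or 0.44 without that array. The synaptic protein Snap25, named after its values were seen, had the largest difference of the 10, at 1.03 ± 0.27, or 0.90 without that array, and its groups did not overlap.

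The choroid plexus also makes transferrin, and of 9 markers of choroid plexus and ependyma 2 were higher with norepinephrine, or 4 without KCl replicate 1, with means of 6.53 to 6.63 against 6.98, 6.46 and 6.71. Its defining marker Ttr read 5.78 to 6.87 and lay at the 24.4th percentile, with a difference of -0.27 ± 0.28, or -0.0011 without that array. Cells of the meninges also make claudin 11, and of 10 of their fibroblast markers 0 were higher with norepinephrine, or 7 without KCl replicate 1. Their means were 6.21 to 6.42 with norepinephrine and 6.80, 6.20 and 6.46 with KCl, and Col1a1 turned from -0.14 ± 0.25 to 0.05 ± 0.22. Schwann cells, the myelinating glia of nerves, share some of these genes, and of 6 measured markers 4 were higher with norepinephrine, or 5 without KCl replicate 1, with means of 8.12 to 8.28 and 7.91, 8.18 and 8.17. Microglia and endothelial markers had 1 of 10 and 1 of 9 higher with norepinephrine, or 6 and 6 without KCl replicate 1, and Aif1 and Pecam1 lay at the 21.3rd and 24.5th percentiles.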

How the data were processed

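RNA of 6 samples of big neurospheres, 3 per treatment, was labelled with the Applause WT-Amp ST kit, per the labels' protocols. The authors deposited log2 values per probe set. Partek and RMA are listed in the submitters' processing notes, with settings and genome build not given in the sources used here. Of 34760 probe sets, 21640 had 1 gene symbol in the platform table, 1321 had several and 11799 had none listed; 21553 were matched by Entrez identifier to RefSeq. A gene was represented by its probe set of highest mean over the 6 arrays. Groups were compared with limma 3.58.1 in R 4.3.3 (lmFit, eBayes) on all named probe sets, two-sided, with no covariate, Benjamini-Hochberg adjustment and a threshold of 0.05. The fit was tested on simulated data. The 9 genes and the other lists were chosen with earlier results of these data known, so lists are described by counts and medians without a test. Genes named from a pathway list were the 2 of smallest p and its defining genes, and from a cell type list its defining markers. Cp and Snap25 were named after their values were seen. Promoter windows were searched on both strands. Alternatives were a further quantile normalization, centring, a filter at the 30th percentile, trend and robust moderation, array weights, a replicate block, other probe sets and leaving out each array. Gene-by-gene array weights, quantile normalization without KCl replicate 1 and list medians without that array were added after seeing the data.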

Additional observations from a re-analysis of the deposited data

How the results depend on the processing

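No alternative called any of the 9 genes except gene-by-gene array weights, added after seeing the data: limma then called Trf at 0.79 (adjusted p = 0.0233) and Tspan2 at 0.99 (adjusted p = 0.0013), so 2 of the 9, and 1454 probe sets in all. That setting gave KCl replicates 1, 2 and 3 weights of 0.158, 0.288 and 6.76, so KCl rested mostly on 1 array. The planned default array weights did not converge and were left out. Over all 15 alternatives run, adjusted p ranged from 0.0233 to 1.00 for Trf and from 0.0013 to 1.00 for Tspan2. Trf, Tspan2, Cnp, Mog and Mobp kept their direction in 15 of 15 alternatives, and Aspa and Mag in 14 of 14, as the filter on dim probe sets removed both. Mbp turned from -0.05 to 0.19 without KCl replicate 1 (as low as -0.27 without another array), and to 0.18 with a further quantile normalization of those arrays. Cldn11 turned from 0.09 to -0.039 without KCl replicate 2, and was at most 0.28 when 1 array was left out. The cause was not tested. Over all probe sets 0 were called by limma on 6 arrays, with 743 at an unadjusted p under 0.05. Leaving out single arrays gave 0 to 4 calls over all probe sets, 0 among the 9 genes and medians of the 9 from -0.27 to 0.13. Without KCl replicate 1 and with a further quantile normalization, 1 probe set was called. With the replicate number as a block, 0 probe sets were called, with 1436 at an unadjusted p under 0.05, and adjusted p was 0.349 for Trf and 0.532 for Tspan2. Deviations of samples with the same number correlated at 0.30, 0.63 and 0.09, and norepinephrine replicate 3 correlated best with KCl replicate 1, at 0.31. Whether samples with the same number share an origin is not said in the labels and cannot be decided from these correlations.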
